A study of Mus musculus with 6 samples.

Results

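The respiratory chain of mitochondria is built from subunits encoded in the nucleus and from 13 encoded in mitochondrial DNA. The nuclear genes were taken from the table by symbol, as the families Ndufa, Ndufb, Ndufc, Ndufs, Ndufv, Uqcr, Cox4i, Cox5 to Cox8 and Atp5 together with Sdha to Sdhd, Cyc1 and Cycs. After 8 Ndufaf assembly factors and 4 pseudogenes were dropped, 90 of the 25888 genes in the table remained. By name 39 of them belonged to complex I (3 of these are gene copies), 4 to complex II, 9 to complex III, 17 to complex IV (3 muscle isoforms, 3 other tissue isoforms and 1 gene copy among them) and 16 to complex V. The other 5 were Cycs, Ndufa4, Ndufa4l2, Cox7a2l and Atp5s. Of the 90 genes, 84 had a mean of at least 1 FPKM (fragments scaled by exon length and library size) over the libraries and were tested. The 6 below that level were Cox7b2, Ndufs6b, Cox8b, Ndufa11b, Ndufb4c and Ndufb2, of which Ndufb2 was nearest the limit with a mean of 0.868 FPKM. The lowest genes tested were Cox6c2 with 1.02 FPKM and Atp5s with 3.92 FPKM.

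RNA was measured by sequencing in 3 mutant and 3 control libraries of C57BL/6 mouse embryos at E9.5. The mutants were Hand2flox/flox; Mef2c-AHF-Cre, in which Cre is driven in the anterior second heart field and its descendants, so that other cells of the tissue keep Hand2. The controls are labelled as control, and the labels do not state their alleles, nor whether they carry Cre or floxed Hand2. Each library held pooled tissue of the anterior dorsal pericardial wall and the outflow tract (aDPW+OFT), the region where second heart field cells join the heart. Hand2, a transcription factor of the developing heart, had 34.6, 22.2 and 17.9 FPKM in mutant libraries 1 to 3, against 116, 64.3 and 81.7 FPKM in control libraries 1 to 3, so the 3 mutants lay below the 3 controls. Its limma adjusted p was 0.109, or 0.00279 when the replicate number entered as a block. The recovered reads summed to 21864049 to 24940559 in mutants and to 23367536 to 28468963 in controls. Whether the pools of 1 group came from different litters is not stated, and p-values therefore cover only the spread among these 6 libraries.

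Complex I passes electrons from NADH to ubiquinone, and complex II, which is also the succinate dehydrogenase of the tricarboxylic acid cycle, passes them from succinate. Complex III hands them on to cytochrome c and complex IV to oxygen, while complexes I, III and IV pump protons that complex V, the ATP synthase, uses to make ATP. The beating heart muscle relies on this chain, and some complex IV subunits exist as a ubiquitous isoform and an isoform of heart and skeletal muscle. In bulk tissue, fewer cells of a type and less RNA per cell cannot be told apart.

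Mean transcript levels of the respiratory chain were slightly lower in mutants than in controls in all 5 complexes, but no single gene passed the test when libraries were compared without pairing. By limma on log2(FPKM + 1) without a block, 0 of 84 genes were lower and 0 higher at an adjusted p under 0.05, where 0.15% of all 12650 genes tested were lower and 0.0237% higher. At an unadjusted p under 0.05 the same fit held 1 of the 84 as lower, Uqcrc2, against 4.32% of all genes. With libraries of the same number treated as pairs, 10 of the 84 fell (11.9%) and 0 rose, against 3.7% of all genes lower and 1.42% higher. At an unadjusted p under 0.05 that fit held 53 of the 84 as lower (63.1%) and 0 as higher, against 13.6% of all genes lower. On the whole reads recovered from the FPKM values, limma-voom held 0 of the 84 as lower or higher without the block (0.15% and 0.0237% of all genes) and 22 as lower and 0 as higher with it (6.01% and 3.78% of all genes). With a weight for each library in place of the block, 0 of the 84 passed in either direction, against 2.76% of all genes lower and 1.53% higher. What the numbers mean is not stated in the labels, and the paired counts rest on the numbers marking a shared source.

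The shift was small and common to most genes. The log2 fold change was below 0 for 82 of 84 genes (97.6%), where 52.1% of all genes lay below 0, and for 77 and 76 of the 84 after quantile normalization and after scaling to equal sums. The median over the 84 was -0.19, against -0.01 over all genes tested, and the genes ranged from -0.49 for Cox7a1 to 0.11 for Cox6b2. For 70 of the 84 (83.3%) the mutant mean was between 80% and 95% of the control mean. The exceptions to the direction were Cox6b2, known as a testis isoform, with 10.3 ± 3.45 FPKM in mutants and 9.42 ± 3.06 FPKM in controls, and Ndufa4l2, a hypoxia-induced relative of Ndufa4, with 4.67 ± 0.69 FPKM in mutants and 4.53 ± 2.28 FPKM in controls (SD, n = 3 each). Neither difference passed (limma adjusted p = 1.00 for both, and 0.288 and 0.739 with the replicate block). Summed over the 90 genes, the libraries held 9327, 6146 and 6125 FPKM in mutants 1 to 3, against 11008, 6593 and 7136 FPKM in controls 1 to 3. The sum in each mutant was below that of the control of the same number, at 84.7%, 93.2% and 85.8% of it, yet mutant 1 exceeded controls 2 and 3, so the groups overlapped. As a share of all FPKM the sum was 2.47%, 1.89% and 1.95% in mutants 1 to 3, against 2.64%, 2.04% and 2.17% in controls 1 to 3.

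**Figure D1:**
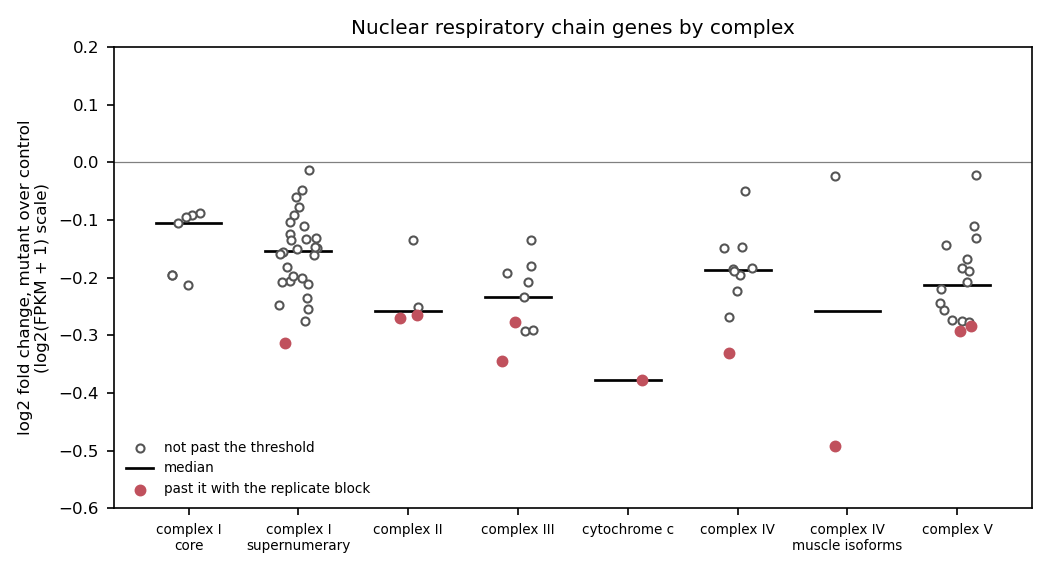
Log2 fold change (mutant over control, on the log2(FPKM + 1) scale, vertical axis) of the subunits of each complex, cytochrome c and the muscle isoforms tested; each point is 1 gene, filled points passed the limma threshold with the replicate block, and bars mark medians. All points lie below 0, with Cox7a1 lowest at -0.49; after quantile normalization Ndufa2, Ndufb8, Cox6a1, Cox6a2 and Atp5g2 were above 0, and after scaling to equal sums Ndufb6 too.

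Libraries of number 1 stood apart in both groups. Mutant 1 was the highest mutant for 82 of 84 genes (97.6%), and control 1 was the highest control for 81 (96.4%). The lowest of the 6 libraries was a mutant for 77 genes (91.7%). These counts were not made over all genes. Over all genes tested, library 1 exceeded the mean of libraries 2 and 3 by a median of -0.001 (log2) in mutants and 0.013 in controls. All 3 mutants lay below all 3 controls for only 2 genes, Uqcrc2 and Cox6c2 (2.38%), where 6.85% of all genes did so, and for 0 genes did all mutants lie above all controls, against 5.44% of all genes. The values of Cox6c2 rest on only 5 to 8 recovered reads a library. Compared number by number, the mutant was lower in all 3 pairs for 64 genes (76.2%) and higher in all 3 for 1 (Cox6b2), against 25.1% and 20.5% of all genes. The median difference over the 84 genes was -0.25, -0.12 and -0.19 (log2) in pairs 1, 2 and 3.

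Without pairing, the median of the whole set moved in opposite directions when library 1 was left out of only 1 group. Without control 1 the median log2 fold change over the genes tested was 0.03 and 38 of 83 genes lay below 0. Without mutant 1 it was -0.38 and 83 of 84 genes lay below 0. Leaving out any single library but control 1 kept the median between -0.38 and -0.09. With the block, leaving out both libraries of number 1, 2 or 3 left medians of -0.17, -0.22 and -0.18. In these fits 1 of 83, 4 of 84 and 1 of 84 genes of the respiratory chain were lower past the threshold. Cox7a1 was among them each time and is the only gene that was. Of all genes tested, the same fits held 246 of 12665, 229 of 12635 and 210 of 12632 as lower. Other short transcripts also had an excess in library 1: the median gap of library 1 to the mean of libraries 2 and 3 was 0.56 (log2) in mutants and 0.70 in controls for the respiratory chain, and 0.57 in mutants and 0.73 in controls for 79 genes of cytosolic ribosomal proteins. It was 0.28 in mutants and 0.34 in controls for the 2032 genes outside the respiratory chain with an exonic length under 1500 bases. Ribosomal genes of that length are included in these 2032. The ribosomal genes had a median log2 fold change of -0.06, and 0 of them passed with the block. At an unadjusted p under 0.05 limma with the block held 4 of the 79 as lower, against 13.6% of all genes. The 2032 short genes outside the respiratory chain had a median log2 fold change of -0.03. With the block 85 of them were lower (4.18%, against 3.7% of all genes) and 36 higher (1.77%, against 1.42% of all genes). The part of transcript length in the result was not tested beyond a fit with the length trend removed, in which 13 genes of the respiratory chain were lower with the block, against 3.62% of all genes, and 0 higher, against 1.77%.

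**Figure D2:**
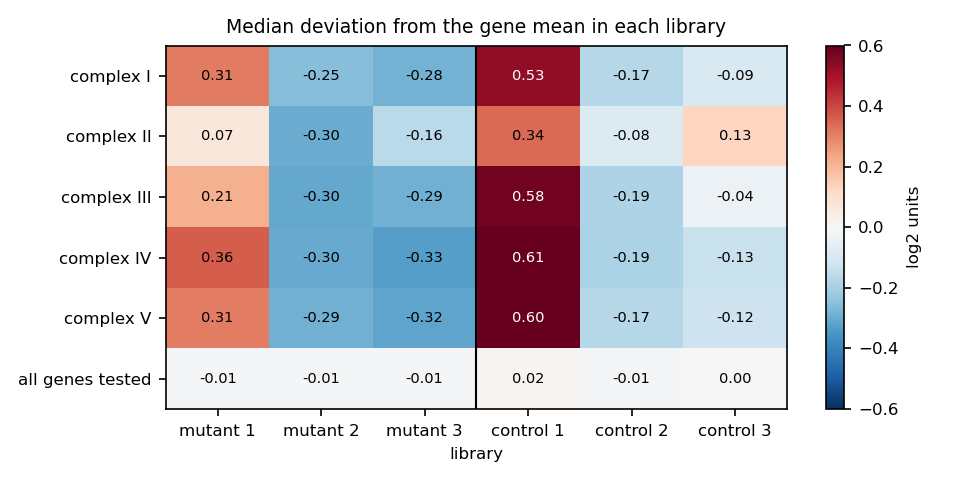
Median deviation of the subunits of each complex, and of all genes tested, in each library from the gene's mean over the 6 libraries (log2(FPKM + 1)), with the 3 mutant libraries left of the 3 controls; colour and printed number give the same value. Mutant 1 and control 1 are above 0 in every complex, and each mutant is below the control of its own number.

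Complex I had the largest number of genes and a small difference. Its 35 subunits tested were all lower in mutants on the mean (33 after quantile normalization and 32 after scaling to equal sums), with a median log2 fold change of -0.15 and a range of -0.31 to -0.01. The median was -0.11 for the 7 catalytic core subunits, which carry the electron path, and -0.15 for the 28 supernumerary subunits, which surround and stabilise the core; the difference between them was not tested. Summed over 36 subunits the libraries held 2377, 1571 and 1534 FPKM in mutants 1 to 3, against 2754, 1651 and 1737 FPKM in controls 1 to 3. Each mutant sum was below the control of its number, by least in pair 2, where it was 95.1% of the control.

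Only Ndufa1, a small membrane subunit encoded on chromosome X, fell with the block among the complex I genes. That is 1 of 35 tested, against 3.7% of all genes lower. It had 108, 61.7 and 60.1 FPKM in mutants 1 to 3, against 135, 76.3 and 74.95 FPKM in controls 1 to 3. The mutant was lower in every pair, though mutant 1 lay above controls 2 and 3. The log2 fold change of -0.31 (SE 0.30) had a limma adjusted p of 0.995 without the block and 0.0286 with it. The 4 complex I genes with the smallest unpaired p were Ndufs1, Ndufv2, Ndufa10 and Ndufs4, and none passed with the block. Ndufs1, the core subunit with the most iron-sulfur clusters, had 9.67, 9.14 and 10.6 FPKM in mutants 1 to 3, against 10.3, 11.3 and 12.6 FPKM in controls 1 to 3, so that only mutant 3 reached above the lowest control (limma adjusted p = 0.837, and 0.126 with the block). Ndufv2, a core subunit of the NADH-oxidising arm, averaged 39.3 ± 6.88 FPKM in mutants and 46.0 ± 10.7 FPKM in controls (limma adjusted p with the block = 0.0868). Ndufa10 averaged 27.7 ± 2.75 FPKM in mutants and 32.3 ± 4.12 FPKM in controls, and Ndufs4, whose loss in people causes Leigh syndrome, 27.9 ± 5.12 FPKM in mutants and 32.5 ± 6.76 FPKM in controls (SD, n = 3 each). Over the 36 subunits the mutant mean was between 78.5% (Ndufs5) and 96.6% (Ndufb6) of the control mean. Ndufs6 was the highest of the complex by FPKM, with 147 in mutants and 163 in controls, and Ndufb2 the lowest, with 0.848 in mutants and 0.887 in controls. The Ndufb2 values rest on 100 to 176 recovered reads a library over an exonic length of 5628 bases. Ndufb2 shares exonic bases with Gm42420 on the same strand and with Braf and Gm16272 on the opposite strand. The part of counting and length in its low level was not tested. The gene copies Ndufa11b, Ndufb4c and Ndufs6b had mutant means of 0.287, 0.48 and 0.197 FPKM, against control means of 0.223, 0.366 and 0.0823 FPKM.

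Complex II, the smallest, had a median log2 fold change of -0.26 and was lower in mutants for 4 of 4 subunits in all 3 pairs. Its sum was 272, 207 and 232 FPKM in mutants 1 to 3, against 315, 242 and 280 FPKM in controls 1 to 3. The pair ratios were alike, at 86.4%, 85.8% and 82.9%, and library 1 exceeded libraries 2 and 3 by a median of 0.30 (log2) in mutants and 0.31 in controls, against 0.53 to 0.67 in mutants and 0.65 to 0.78 in controls for the other complexes. Differences between complexes were not tested.

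The iron-sulfur subunit Sdhb (chromosome 4) and the membrane anchor Sdhd (chromosome 9) fell with the block. Sdhb had 60.1, 40.7 and 43.8 FPKM in mutants 1 to 3, against 71.8, 48.5 and 54.5 FPKM in controls 1 to 3, a log2 fold change of -0.27 (SE 0.20, limma adjusted p = 0.941 and 0.0401 with the block). Sdhd had 110.0, 81.4 and 91.3 FPKM in mutants 1 to 3, against 130.1, 95.8 and 115 FPKM in controls 1 to 3, a log2 fold change of -0.27 (SE 0.16, limma adjusted p = 0.891 and 0.0499 with the block). For both genes mutant 1 lay within the range of the controls, and each mutant was below its own control. Sdhc, the other anchor subunit, had 33.2, 26.8 and 28.8 FPKM in mutants 1 to 3, against 41.0, 30.7 and 34.9 FPKM in controls 1 to 3, and just missed the threshold (limma adjusted p = 0.0504 with the block). Sdha, the flavoprotein that oxidises succinate, had 69.2, 58.5 and 67.8 FPKM in mutants 1 to 3, against 72.6, 66.6 and 75.5 FPKM in controls 1 to 3. Its log2 fold change was -0.14 (SE 0.11) and it did not pass (limma adjusted p with the block = 0.199). The calls of Sdhb and Sdhd lie close to the threshold, and with the length trend removed neither passed while Sdhc did.

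Complex III was lower in mutants for 9 of 9 subunits in all 3 pairs, with a median log2 fold change of -0.23 and a range of -0.34 to -0.13. Its sum was 1171, 763 and 758 FPKM in mutants 1 to 3, against 1428, 832 and 919 FPKM in controls 1 to 3, or 82.0%, 91.7% and 82.4% of the control of the same number.

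Uqcrc2 (ENSMUSG00000030884, chromosome 7), a core protein of the matrix side, was the clearest gene of the complex. It had 46.6, 40.1 and 46.3 FPKM in mutants 1 to 3, against 57.3, 48.2 and 56.3 FPKM in controls 1 to 3. Every mutant lay below every control, and library 1 was hardly above library 3 in either group. The log2 fold change of -0.28 (SE 0.11) had a limma adjusted p of 0.695 without the block and 0.0356 with it. Uqcrc2 shares 504 exonic bases with Pdzd9 on the opposite strand, and no strand setting of the counting is given. Uqcrq (chromosome 11), a small subunit near the ubiquinone-binding part, had 97.9, 56.8 and 53.9 FPKM in mutants 1 to 3, against 130.2, 64.6 and 73.8 FPKM in controls 1 to 3. Its groups overlapped through library 1, and its log2 fold change was -0.34 (SE 0.32, limma adjusted p = 0.990 and 0.0497 with the block). Uqcrb and Uqcrh missed the threshold with the block (adjusted p by limma 0.0583 and 0.0575). Uqcrb averaged 57.6 ± 11.5 FPKM in mutants and 71.6 ± 20.1 FPKM in controls, and Uqcrh, the hinge protein that helps cytochrome c dock, 87.9 ± 20.1 FPKM in mutants and 109 ± 33.9 FPKM in controls. The Rieske iron-sulfur protein gene Uqcrfs1 averaged 79.2 ± 11.4 FPKM in mutants and 92.0 ± 16.7 FPKM in controls. Cyc1, the cytochrome c1 that passes electrons to cytochrome c, averaged 190.0 ± 43.2 FPKM in mutants and 217 ± 49.3 FPKM in controls (SD, n = 3 each; limma adjusted p with the block = 0.134). Uqcrc1, Uqcr10 and Uqcr11 had mutant means of 90.3%, 87.8% and 83.4% of the control mean and did not pass.

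Cycs (ENSMUSG00000063694, chromosome 6), the somatic cytochrome c that shuttles electrons between complexes III and IV and also triggers apoptosome assembly, fell with the block, and its log2 fold change was lower than that of any subunit outside the muscle isoforms. It had 56.8, 41.4 and 39.3 FPKM in mutants 1 to 3, against 74.1, 51.4 and 54.1 FPKM in controls 1 to 3. Mutants 2 and 3 lay below all controls, while mutant 1 was above controls 2 and 3. The log2 fold change of -0.38 (SE 0.19) had a limma adjusted p of 0.823 without the block and 0.0213 with it.

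Complex IV, cytochrome c oxidase, had 10 ubiquitous nuclear subunits tested, all lower in mutants on the mean (9 under the same scalings, without Cox6a1), with a median log2 fold change of -0.19 and a range of -0.33 to -0.05. The sum was 2449, 1537 and 1471 FPKM in mutants 1 to 3, against 2878, 1577 and 1696 FPKM in controls 1 to 3. In pair 2 the mutant sum was 97.5% of the control, against 85.1% and 86.7% in pairs 1 and 3.

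The subunit that fell with the block was Cox7a2, the ubiquitous partner of the muscle isoform Cox7a1. Cox7a2 had 122, 85.9 and 86.7 FPKM in mutants 1 to 3, against 166, 105 and 104 FPKM in controls 1 to 3, a log2 fold change of -0.33 (SE 0.23, limma adjusted p = 0.925 and 0.0384 with the block). Mutants 2 and 3 lay below all controls. Cox6b1, which helps join oxidase monomers into dimers, averaged 196 ± 47.4 FPKM in mutants and 241 ± 83.3 FPKM in controls and did not pass with the block (limma adjusted p = 0.1004). Cox5a, a matrix-side subunit, averaged 56.5 ± 11.9 FPKM in mutants and 67.2 ± 21.3 FPKM in controls, and Cox7c 142 ± 39.4 FPKM in mutants and 163 ± 48.7 FPKM in controls (SD, n = 3 each; limma adjusted p with the block 0.157 and 0.106). Cox4i1, Cox5b, Cox6c and Cox7b had mutant means of 86.5%, 89.0%, 87.6% and 87.3% of the control mean. Among the isoforms of other tissues, Cox4i2, a lung and hypoxia-linked partner of Cox4i1, averaged 19.2 ± 3.74 FPKM in mutants and 23.3 ± 7.24 FPKM in controls, and Cox7b2 was at most 0.138 FPKM in any library. The gene copy Cox6c2 had 0.942, 0.81 and 0.95 FPKM in mutants 1 to 3, against 1.49, 0.975 and 0.965 FPKM in controls 1 to 3. Its groups did not overlap, but mutant 3 and control 3 nearly met and the gene did not pass (limma adjusted p with the block = 0.414). These values rest on 5 to 8 recovered reads a library.

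Of the muscle isoforms of complex IV, 1 passed the test with the block. Cox7a1 (ENSMUSG00000074218, chromosome 7), the heart and skeletal muscle form of subunit VIIa, fell with the block by the largest amount of the 84 genes, whereas Cox6a2, the muscle form of subunit VIa, was near the same level in both groups. Cox7a1 had 18.1, 9.79 and 11.8 FPKM in mutants 1 to 3, against 26.5, 14.0 and 16.7 FPKM in controls 1 to 3. Mutants 2 and 3 lay below all controls and mutant 1 lay above controls 2 and 3. These values rest on 140 to 330 recovered reads a library. The mean was 13.2 ± 4.31 FPKM in mutants and 19.1 ± 6.57 FPKM in controls (SD, n = 3 each). The log2 fold change of -0.49 (SE 0.28) had a limma adjusted p of 0.856 without the block and 0.00841 with it.

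Cox6a2 had 54.8, 25.5 and 29.5 FPKM in mutants 1 to 3, against 51.3, 24.9 and 33.9 FPKM in controls 1 to 3. It was higher in the mutant in pairs 1 and 2 and lower in pair 3. Its log2 fold change of -0.02 (SE 0.34; limma adjusted p = 1.00, and 0.880 with the block) was 0.01 after quantile normalization and 0.04 after scaling to equal sums. Cox6a1, its ubiquitous partner and the highest subunit of the complex, had 726, 422 and 388 FPKM in mutants 1 to 3, against 765, 390.4 and 440.4 FPKM in controls 1 to 3. Its log2 fold change of -0.05 (SE 0.34) likewise turned, to 0.02 and 0.01, under those scalings. Cox8b, the muscle form of subunit VIII, was barely measured: it was listed at 0, 0.103 and 0 FPKM in mutants 1 to 3, against 0.831, 0.267 and 0.103 FPKM in controls 1 to 3, and was not tested across genes. Cox8a, the ubiquitous form, had 528, 339 and 319 FPKM in mutants 1 to 3, against 627, 336 and 368 FPKM in controls 1 to 3 (limma adjusted p with the block = 0.312).

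Set against the ubiquitous partner within each library, so that library size cancels, Cox7a1 and Cox6a2 each overlapped between groups. Cox7a1 was 14.8%, 11.4% and 13.6% of Cox7a2 in mutants 1 to 3, against 16.0%, 13.3% and 16.1% in controls 1 to 3. Mutants 1 and 3 lay above control 2, and each mutant was below the control of its number. Cox6a2 was 7.55%, 6.05% and 7.60% of Cox6a1 in mutants 1 to 3, against 6.70%, 6.38% and 7.71% in controls 1 to 3. The mean log2 ratio, of FPKM + 1, differed by -0.16 (mutant minus control) for Cox7a1 and Cox7a2 and by 0.03 for Cox6a2 and Cox6a1, where it ranged from -0.03 to 0.13 when single libraries were left out. The two-sided exact permutation p was 0.3 for Cox7a1 and 1 for Cox6a2, and 0.9 and 1 when adjusted over the 3 isoform pairs computed, where 3 against 3 libraries cannot give less than 0.1. With Cox8b near 0 its log2 ratio to Cox8a is set by the added constant and by Cox8a: it differed by -0.26 with 1 added and by -1.55 with 0.1 added (exact permutation p = 0.6 with 1 added, adjusted p = 0.9), and no change was read from it. The difference in response between Cox7a1 and Cox6a2 was not tested.

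**Figure D3:**
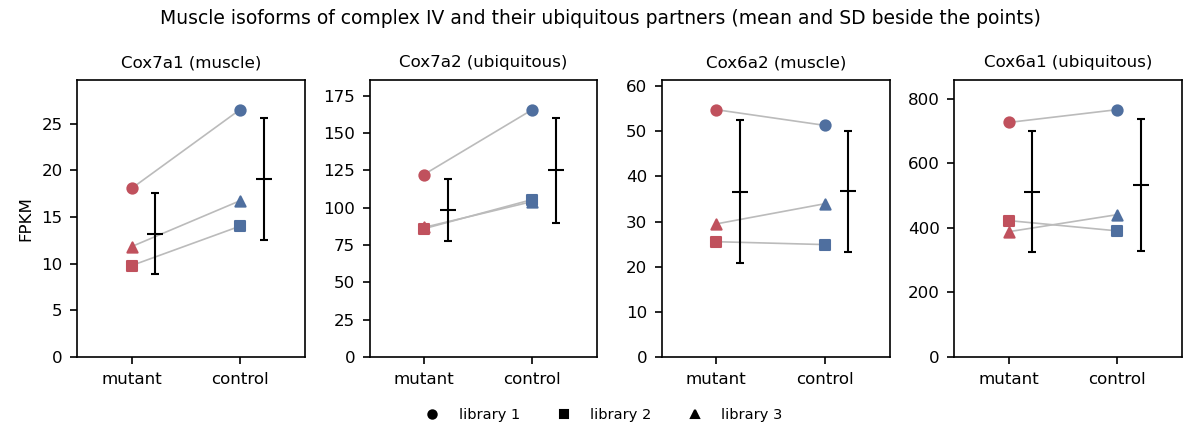
FPKM of the muscle isoforms Cox7a1 and Cox6a2 and of their ubiquitous partners Cox7a2 and Cox6a1 in mutant libraries (left) and control libraries (right); each marker is 1 library, its shape gives the replicate number, grey lines join libraries of the same number, and the bars beside the points give the mean and SD (n = 3). All 3 lines of Cox7a1 run higher on the control side, whereas those of Cox6a2 run in both directions.

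The stretches upstream of Cox7a1 and Cox7a2 are shown because these partners were both lower with the block. RefSeq places the start of Cox7a1 on the plus strand of chromosome 7 and that of Cox7a2 on the minus strand of chromosome 9. The 250 bases before each start, in GRCm38.p6, are chr7:30183921-30184170 and chr9:79759854-79760103, printed 5′ to 3′ along the gene. Capitals mark the E-box letters CANNTG, the core that helix-loop-helix factors such as Hand2 can bind. Each window holds 1 match. E-box letters, which read the same on both strands, were found in the 250 bases before the start of 62.9% of the respiratory chain genes with a promoter entry, against 69.3% of all genes, and were searched after the expression values were known.
Cox7a1: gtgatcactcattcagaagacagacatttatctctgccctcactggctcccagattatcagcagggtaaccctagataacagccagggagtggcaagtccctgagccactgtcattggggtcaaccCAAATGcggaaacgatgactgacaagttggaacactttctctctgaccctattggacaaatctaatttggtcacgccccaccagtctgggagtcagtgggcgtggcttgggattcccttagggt
Cox7a2: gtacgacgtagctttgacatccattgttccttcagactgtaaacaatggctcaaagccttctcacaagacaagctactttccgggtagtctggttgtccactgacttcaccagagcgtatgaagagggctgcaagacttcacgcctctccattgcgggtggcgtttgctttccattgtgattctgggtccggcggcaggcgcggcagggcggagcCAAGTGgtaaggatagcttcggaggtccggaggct

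Complex V, the ATP synthase, was lower in mutants for 16 of 16 subunits on the mean (15 under these scalings, without Atp5g2) and for 14 in all 3 pairs, with a median log2 fold change of -0.21 and a range of -0.29 to -0.02. Its sum was 2642, 1796 and 1850 FPKM in mutants 1 to 3, against 3132, 1983 and 2173 FPKM in controls 1 to 3. Mutant 1 was the only mutant above a control, and the pair ratios were 84.4%, 90.6% and 85.1%.

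Atp5c1 (chromosome 2) and Atp5f1 (chromosome 3) fell with the block. Atp5c1, the central stalk subunit gamma, had 107, 84.7 and 94.0 FPKM in mutants 1 to 3, against 139, 101 and 113 FPKM in controls 1 to 3, a log2 fold change of -0.29 (SE 0.16, limma adjusted p = 0.847 and 0.0449 with the block). Atp5f1, subunit b of the peripheral stalk, had 54.1, 42.9 and 45.3 FPKM in mutants 1 to 3, against 68.6, 50.7 and 55.2 FPKM in controls 1 to 3, a log2 fold change of -0.28 (SE 0.15, limma adjusted p = 0.834 and 0.0380 with the block). For each of these genes mutants 2 and 3 lay below all controls and mutant 1 did not. Atp5f1 shares 190 exonic bases with Wdr77 and 147 with Gm42890, both on the opposite strand. The catalytic-head genes Atp5a1 and Atp5b were the highest of the complex and did not pass: Atp5a1 averaged 364 ± 44.1 FPKM in mutants and 421 ± 54.2 FPKM in controls (SD, n = 3 each; limma adjusted p with the block = 0.114), and the mutant mean of Atp5b was 88.9% of the control mean. The 3 genes of the rotating c ring encode the same mature protein. Atp5g3 averaged 155 ± 37.4 FPKM in mutants and 188 ± 49.3 FPKM in controls, and Atp5g1 34.6 ± 10.1 FPKM in mutants and 41.8 ± 13.8 FPKM in controls, both just outside the threshold with the block (limma adjusted p 0.0530 and 0.0524). Atp5g2, with 97.8 ± 18.3 FPKM in mutants and 100.1 ± 25.2 FPKM in controls, had a log2 fold change of -0.02. The other 9 subunits (Atp5d, Atp5e, Atp5h, Atp5j, Atp5j2, Atp5k, Atp5l, Atp5mpl and Atp5o) had mutant means between 81.6% and 90.6% of the control mean.

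**Figure D4:**
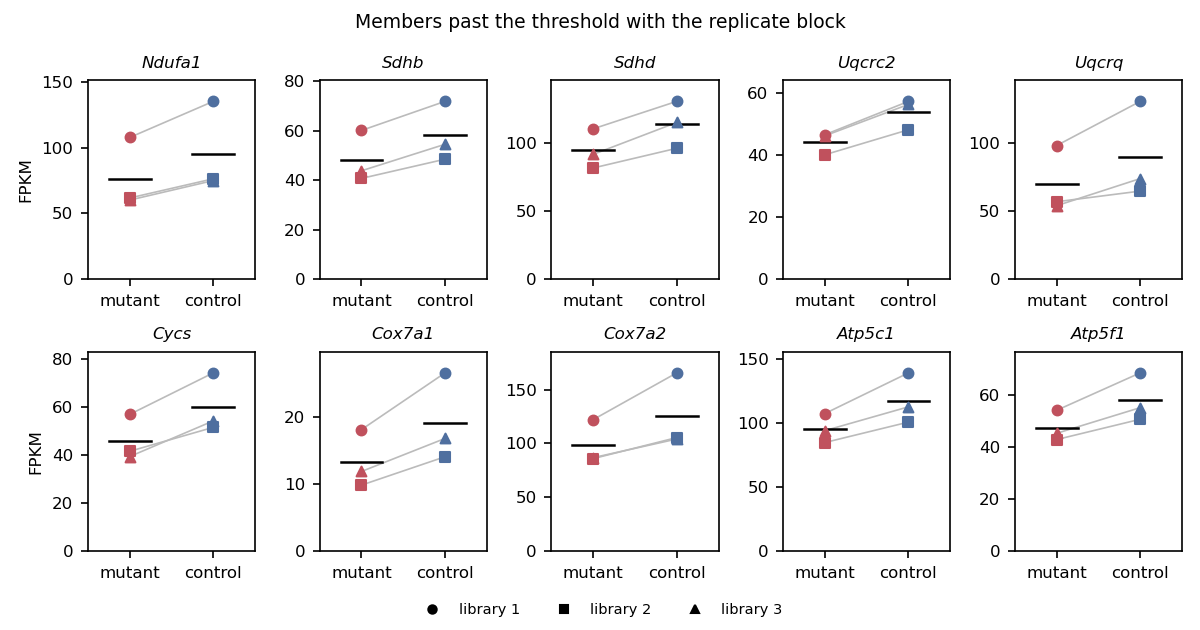
FPKM of the 10 genes that passed the limma threshold with the replicate block, in mutant libraries (left) and control libraries (right); each marker is 1 library, its shape gives the replicate number, lines join libraries of the same number and bars mark group means. Every line runs higher on the control side, and mutant 1 overlaps the controls for all of them but Uqcrc2.

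The genes of the name families that are not ordinary subunits did not pass. Ndufa4, once counted with complex I and now placed with complex IV, had 124, 89.4 and 84.8 FPKM in mutants 1 to 3, against 162, 97.7 and 100.2 FPKM in controls 1 to 3 (limma adjusted p with the block = 0.0977). Cox7a2l, described as a factor for joining complexes III and IV into supercomplexes, averaged 87.4 ± 20.8 FPKM in mutants and 100.5 ± 23.1 FPKM in controls (limma adjusted p with the block = 0.0995). Atp5s, coupling factor B, averaged 3.84 ± 0.42 FPKM in mutants and 3.99 ± 0.27 FPKM in controls (SD, n = 3 each). Many of these families have processed pseudogenes and close copies elsewhere in the genome, and how reads that match several places were counted is not given.

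In the groups around the nuclear subunits the differences were uneven. The 13 subunits encoded in mitochondrial DNA had a median log2 fold change of -0.08, with 9 of 13 below 0 (0.05 and 6 of 13 after quantile normalization), and 0 passed with or without the block. At an unadjusted p under 0.05 limma held 0 of the 13 as lower without the block and 1 with it, against 4.32% and 13.6% of all genes. The oxidase gene mt-Co1 averaged 2282 ± 275 FPKM in mutants and 2630 ± 437 FPKM in controls, while mt-Nd4l had 6.01 ± 0.35 FPKM in mutants and 4.91 ± 1.10 FPKM in controls (SD, n = 3 each). Levels of the 13 were far apart, from 1.66 FPKM for mt-Atp8 to 2282 FPKM for mt-Co1 in mutants. The part of read counting in the low values, that of mt-Nd4l among them, was not tested. Assembly factors, which build the complexes without staying in them, had a median of -0.08 over 43 tested. Without the block 0 of the 43 fell, against 0.15% of all genes lower. With the block 1 of the 43 fell, against 3.7% of all genes lower. It was Ndufaf5, with 6.11 FPKM in mutants and 7.85 FPKM in controls (limma adjusted p = 0.0306). The tricarboxylic acid cycle and pyruvate dehydrogenase genes had a median of -0.18 over 18. Without the block 0 of these fell (lowest limma adjusted p 0.562), against 0.15% of all genes lower. With the block 4 of them fell, against 3.7% of all genes lower. They were Idh3a (37.6 FPKM in mutants and 48.4 in controls), Ogdh (36.5 in mutants and 46.0 in controls), Pdhb (79.5 in mutants and 96.6 in controls) and Cs, the citrate synthase (105 in mutants and 127 in controls). Of 19 regulators of mitochondrial biogenesis, 0 passed with or without the block, and their median was -0.02 (0.03 after scaling to equal sums). At an unadjusted p under 0.05 limma held 1 of the 19 as higher without the block, against 329 of all 12650 genes. With the block it held 4 as lower and 1 as higher, against 1716 and 1183 of all 12650 genes. Ppargc1a, the coactivator of mitochondrial biogenesis, averaged 1.91 FPKM in mutants and 2.43 FPKM in controls.

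Lists of cell type markers did not all go in the same direction. The 14 cardiac muscle markers were all lower in mutants on the mean, with a median log2 fold change of -0.68. Of these, 11 fell with the block, against 3.7% of all genes, and 0 without it, against 0.15%. At an unadjusted p under 0.05 limma without the block held 7 of the 14 as lower, against 4.32% of all genes. Their summed level was 3637 to 5561 FPKM in mutants and 5589 to 8997 FPKM in controls, at 61.8%, 65.1% and 62.6% of the control of the same number. For the respiratory chain the same 3 ratios were 84.7%, 93.2% and 85.8%. All 4 smooth muscle markers tested and 4 of 6 endothelial markers were also lower with the block (3.7% of all genes), and 0 of either list without it (0.15%). Smooth muscle markers summed to 1108 to 1391 FPKM in mutants and 1640 to 2456 FPKM in controls. Most of this sum was Acta2 (mean 830 FPKM in mutants and 1446 in controls) and Tagln (379 in mutants and 578 in controls). Myh11, also on that list, was below the filter, at 0.246 FPKM in mutants and 0.780 in controls. The cells that hold these transcripts were not identified. Endothelial markers summed to 73.1 to 82.7 FPKM in mutants and 96.7 to 109 FPKM in controls. Of 6 second heart field markers 2 were higher and 1 lower with the block, against 1.42% and 3.7% of all genes, and 0 passed without it. The higher ones were Tbx1 (117 FPKM in mutants and 65.1 in controls) and Six2 (16.1 in mutants and 8.97 in controls). The lower one was Isl1 (15.8 in mutants and 20.0 in controls). On the mean 4 of the 6 were higher in mutants and 2 lower. The 6 markers summed to 164 to 244 FPKM in mutants and 116 to 142 FPKM in controls, with Tbx1 the largest part. Red cell markers summed to 3487 to 5079 FPKM in mutants and 3343 to 7962 FPKM in controls, and 0 of 7 passed. Yolk sac and liver endoderm markers summed to 628 FPKM in control 3, against 2.49 to 6.25 FPKM in mutants and 3.49 and 5.15 FPKM in the other controls. Of 4 macrophage markers only 1 was above the filter, and the list summed to 3.30 to 4.60 FPKM in mutants and 3.16 to 3.42 FPKM in controls. The part of these cells in the respiratory chain values was not tested.

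**Figure D5:**
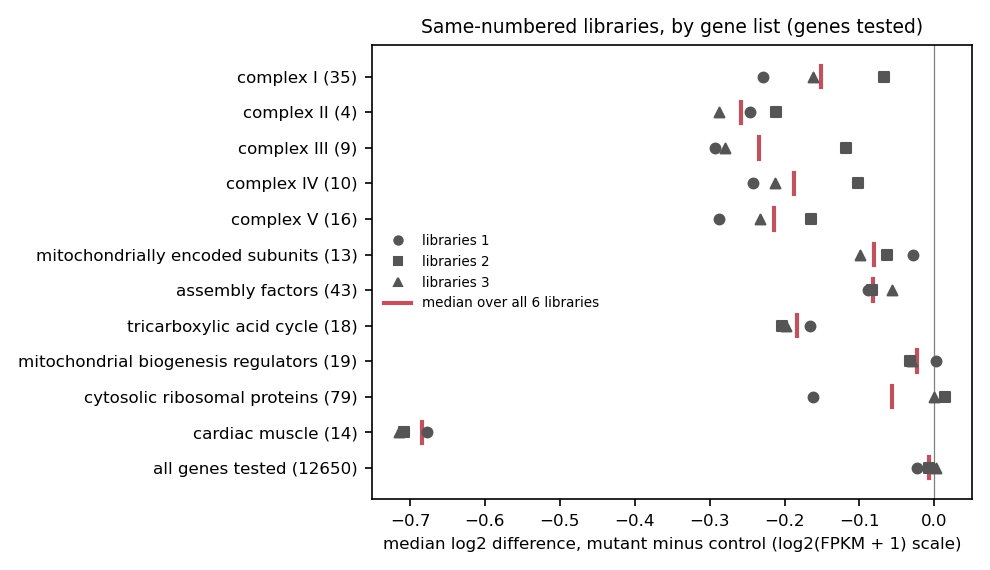
Median log2 difference, mutant minus control, within each pair of same-numbered libraries, for the 5 complexes, related mitochondrial lists, cytosolic ribosomal proteins, cardiac muscle markers and all genes tested; each marker is 1 pair and the red line is the median log2 fold change over all 6 libraries. The 5 complexes are below 0 in all 3 pairs, and the cardiac muscle markers lie lower, at -0.68, -0.71 and -0.71.

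Promoters of these genes are known for sites of nuclear respiratory factor 1 (NRF1), ETS-family factors such as GABP, and YY1. In RefSeq windows of 250 bases before to 50 after the start (GRCm38.p6), 70 of the 90 genes had a window, 68 by symbol and 2 by synonym. The NRF1 palindrome, searched as 1 exact word on both strands, was found in 5 of the 70 (7.14%), against 1.07% of all 27025 genes. The ETS word CCGGAAGT was found in 5 (7.14%), against 4.31% of all genes, and an exact YY1 word in 4 (5.71%), against 0.755% of all genes. Any of these words was found in 14 of 70 (20%), against 5.93% of all genes. None of the 8 genes with a window among the 10 that fell with the block holds one, while 14 of the other 59 tested genes with a window do. The genes with the NRF1 word were Ndufa11, Uqcrc1, Cox6a1, Atp5g2 and Atp5k. Their log2 fold changes were -0.16, -0.13, -0.05, -0.02 and -0.28, and none passed with the block. Exact words miss variant sites, and a match is a description of the letters only.

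The stretches around the word that lie wholly before the start are shown for 4 of these genes, to print the letters behind the NRF1 count. Most of the windows searched do not hold the word. They are chr17:56717677-56717736 (Ndufa11, plus strand), chr5:115349086-115349145 (Cox6a1, minus strand), chr15:102671055-102671114 (Atp5g2, minus strand) and chr5:108434415-108434474 (Atp5k, minus strand) of GRCm38.p6, each of 60 bases, printed 5′ to 3′ along the gene with the NRF1 word in capitals. The word starts 60, 162, 42 and 50 bases before the annotated start.
Ndufa11: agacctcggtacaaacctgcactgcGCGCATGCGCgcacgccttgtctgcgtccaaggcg
Cox6a1: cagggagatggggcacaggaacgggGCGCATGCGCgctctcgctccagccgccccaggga
Atp5g2: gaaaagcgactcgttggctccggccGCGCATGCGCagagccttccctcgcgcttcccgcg
Atp5k: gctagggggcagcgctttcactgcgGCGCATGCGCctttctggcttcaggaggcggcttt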

How the data were processed

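RNA was sequenced in 3 mutant and 3 control libraries, grouped by the genotype label. Per the labels' protocols, the kit was NEBNext Ultra. The authors deposited 1 table of FPKM values for 25888 genes. Tools named in the submitters' processing notes are bcl2fastq 2.18, STAR 2.5.1b and Cufflinks 2.2.1, with build mm8, while no source used here gives the annotation or strand setting. All but 129 IDs matched a symbol in the name table. Deposited FPKM values rose in steps worth 1 read, from which whole reads were recovered for 25873 genes. The gene lengths implied equal GENCODE M21 exon unions on GRCm38 for 78.5% of the genes in the table and for 69% of the respiratory chain genes tested; coordinates are on GRCm38. Elsewhere the recovered reads can be low by a factor that is the same in each library.

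The filter was a mean of 1 FPKM, and tests were run on log2(FPKM + 1) with limma 3.58.1 in R 4.3.3 (two-sided, with a mean-variance trend, all 6 libraries). P-values were adjusted over the 12650 genes by the Benjamini-Hochberg method at 0.05. A log2(FPKM + 1) change understates that of low genes. Alternatives covered the pseudocount, filter, scaling, library weights, single libraries, transcript length and limma-voom on recovered reads with median-of-ratios scaling.

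The groups share replicate numbers. Libraries of the same number deviated together, with correlations over genes of 0.73, 0.44 and 0.44, all above 0.1, and were taken as pairs in the fit with a replicate block; mutant 3 and control 2, of unlike numbers, had 0.31. The pairing comes from the data, since the labels do not say what the numbers mean. The p-values with the block rest on this pairing and do not allow for its choice from the same values. Deviations were taken from each group's own mean, so the correlations are not independent of each other.

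Genes named were those past the threshold in either fit, the 4 of each complex with the smallest p, and the isoform pairs; others are given to account for every member, chosen after their values were seen. The members, gene lists and motifs were chosen with earlier results of these data known.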

Additional observations from a re-analysis of the deposited data

How the results depend on the processing

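Without the replicate block, 0 genes of the respiratory chain were lower or higher under each alternative scaling, filter, pseudocount or weighting and without any single library. With the replicate block 10 were lower, 13 with the length trend also removed and 22 by limma-voom on recovered reads. Leaving out libraries gave 0 to 4 lower, where both libraries of a number were left out in the blocked fit and single libraries in the unblocked one. The count of higher genes was 0 throughout. Without single libraries, or both of a number, the median log2 fold change ranged from -0.34 to 0.07 in complex I, -0.36 to -0.14 in complex II, -0.45 to -0.04 in complex III, -0.41 to 0.06 in complex IV and -0.38 to 0.03 in complex V, each highest without control 1. Quantile normalization moved the median over the chain to -0.14 and scaling to equal sums (red cell and mitochondrial genes left out) to -0.13, with the median of all genes at 0.01 and 0.04.

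Of 560 values for 28 named genes, 17 turned direction, in 5 genes. Cox6a1 was at 0.024 after quantile normalization, 0.012 after scaling to equal sums and 0.0100 with the length trend removed and the block, and ranged from -0.33 to 0.25 without libraries (0.018 without number 3 of both groups). Cox6a2 was at 0.013, 0.037 and 0.035 under these settings and ranged from -0.35 to 0.24 (0.064 without number 3). Without libraries Cox5a ranged from -0.39 to 0.019, Cox7c from -0.40 to 0.043 and Cox8a from -0.37 to 0.13, each highest without control 1. The log2 ratio of Cox8b to Cox8a, with a pseudocount chosen after seeing the data, was -1.55 at 0.1 instead of 1, since Cox8b was near 0. The cause of these changes was not tested. With a replicate block the isoform ratios have the same values by construction, since the mean of the 3 pair differences equals the difference of the means. Without single libraries the ratio of Cox6a2 to Cox6a1 ranged from -0.033 to 0.13, so its direction is not settled. The groups of 3 libraries limit the precision.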

Other observations

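Across genes, which are not independent replicates and share the same 6 libraries, the excess of library 1 over libraries 2 and 3 was larger for shorter transcripts. Spearman's rho between exonic length and this excess was -0.51 in mutants and -0.51 in controls over 12635 genes, and -0.46 in mutants and -0.40 in controls over the 84 respiratory chain genes tested. The respiratory chain genes had a median exonic length of 1372 bases, against 3680 bases for all genes tested. Between length and the log2 fold change, rho was 0.10 over all genes and 0.08 over the respiratory chain.

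Of the respiratory chain genes, 30 share exonic bases with another annotated gene, most of them on the opposite strand. Atp5f1, Uqcrc2 and Cox6a2 are among them, and Cox6a2 shares 70 bases with Itgad.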
